A study of Drosophila melanogaster with 13 samples.

Results

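The gene dpp (decapentaplegic, FBgn0000490) lies on the plus strand of chromosome arm 2L, at chr2L:2428372-2459823 of the dm6 genome, where no other annotated gene overlaps its 31452 bp. Every variable site that any of the 9 deposited tables lists inside this span was taken, which gave 429 of 1679136 sites in all. Of these, 385 were intronic, 18 lay in the coding sequence, 13 in the 5' UTR and 13 in the 3' UTR of at least 1 of the 4 annotated transcripts (dpp-RA, dpp-RB, dpp-RC and dpp-RE). At each site the frequency of the alternative allele, the one that differs from the reference genome, is its share of the reads.

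DNA was sequenced from 12 pools of whole flies (Pool-seq), each of 100 adult females and 1 population. D907 is an inbred wild type line of the Drosophila Genetic Reference Panel, and Mix is an outbred wild type population made by admixture of the 4 inbred lines D208, D437, D820 and D907. D907 and each of 2 selection experiments on Mix have 1 pool of the ancestral (P0), control (C), assimilated (A) and nonassimilated (NA) population. The P0 of Mix experiment 2 is a later generation of the same Mix population that gave the P0 of experiment 1. Control flies were kept under standard conditions without selection. Assimilated flies came from lines that received a heat shock as pupae and were bred from flies with ectopic veins (EV), and were then selected for EV without heat shock. Nonassimilated flies were derived from the control population and selected for EV without any heat shock. The median depth at dpp lay between 78 and 105 reads per pool. Since each population is 1 pool, no spread between replicate populations of 1 experiment was measured, and each test below compares pools.

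Dpp is a secreted ligand of the bone morphogenetic protein (BMP) family. It binds the type II receptor Put and the type I receptors Tkv and Sax. The type I receptors phosphorylate the transcription factor Mad, and Mad with Med controls target genes such as salm, bi and brk. In the larval wing disc the Dpp gradient patterns the positions of the veins, and in the pupal wing dpp is expressed in the developing veins and is needed for their differentiation. All transcripts share the same coding exons and differ in their untranslated first exon.

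The sites on which the results below turn are shown in their reference sequence (RefSeq, Release 6, the build of dm6, plus strand), each with 13 bases on either side. The capital letter is the reference base at the site. The base of the alternative allele is not given in the tables. The first 4 are the coding sites that passed the test in a selected pool, the next is the site with the smallest p-value in experiment 1 and lies in the 5' UTR exon of dpp-RC, and the last 4 are the sites closest to the mean of the sets of sites described below.
dpp site 2455246, coding, codon 59, chr2L:2455233-2455259: ggatctagatcggTaggagcctcgacc
dpp site 2455526, coding, codon 152, chr2L:2455513-2455539: accatcgcagccaCcagccaaagcagg
dpp site 2455616, coding, codon 182, chr2L:2455603-2455629: cgctggtgctcgaCcgcgaggtggcct
dpp site 2455679, coding, codon 203, chr2L:2455666-2455692: ccgagcagggcccGtccacctacagca
dpp site 2451448, 5' UTR, chr2L:2451435-2451461: ttgaggcactattAagagattgttgtt
dpp site 2443511, intron, set a, chr2L:2443498-2443524: gcccagactgctgAtgaccaacaacta
dpp site 2439094, intron, set b, chr2L:2439081-2439107: tagtcaaagtcaaGctcagtcatgagt
dpp site 2447983, intron, set c, chr2L:2447970-2447996: gatagttactctcAagaccgtccatct
dpp site 2444282, intron, set abc, chr2L:2444269-2444295: tggcttcattgtcAtgcggcgcattta

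D907 held almost no variation at dpp, so that no allele of the gene could be followed through selection in this line. The D907 tables list 149 sites of the gene, and at every one the P0 pool carried the alternative allele in at least 97.3% of the reads. Of the 145 sites listed in all 3 D907 tables, 140 were at 98% or more in all 4 pools. The lowest value was 81.2%, at dpp site 2433376 in the nonassimilated pool, where only 16 reads were counted. None of the 149 sites of the control pool, the 147 of the assimilated pool and the 147 of the nonassimilated pool changed from P0 (Fisher's exact test, two-sided, Bonferroni-adjusted p-value below 1e-05 for the number of sites in that table). None had an unadjusted p-value below 0.05 either, against 6.53%, 15.7% and 13.2% of all sites. Over all sites of the 3 tables the shares of changed sites were 0.0379%, 4.38% and 1.84%, and on 2L alone they were 0.0119%, 0.0145% and 0.0152%.

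In Mix, dpp varied, but few of its sites passed the test in most pools. In experiment 1, 2 of 352 listed sites changed in the control pool (0.568%, against 0.75% of all sites and 0.166% of the sites on 2L). In the assimilated pool 5 of 286 sites changed (1.75%, against 14.2% of all sites and 22.7% on 2L), and in the nonassimilated pool 34 of 275 (12.4%, against 21.4% and 16.4%). In experiment 2, 0 of 362 sites changed in the control pool (0.356% of all sites, 0.134% on 2L), 12 of 286 in the assimilated pool (4.2%, against 26.2% and 28.3%) and 0 of 356 in the nonassimilated pool (20.4% of all sites, 10.3% on 2L). By the same Fisher's exact test, an unadjusted p-value below 0.05 was found at 251, 188 and 224 sites of the control, assimilated and nonassimilated pools of experiment 1 (71.3%, 65.7% and 81.5%, against 35.6%, 67.0% and 70.9% of all sites). In experiment 2 it was found at 197, 233 and 228 sites (54.4%, 81.5% and 64.0%, against 36.4%, 67.1% and 66.1%). The share of changed sites at dpp was thus below that of all sites in both assimilated and both nonassimilated pools, as the plot of changed sites shows.

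**Figure D1:**
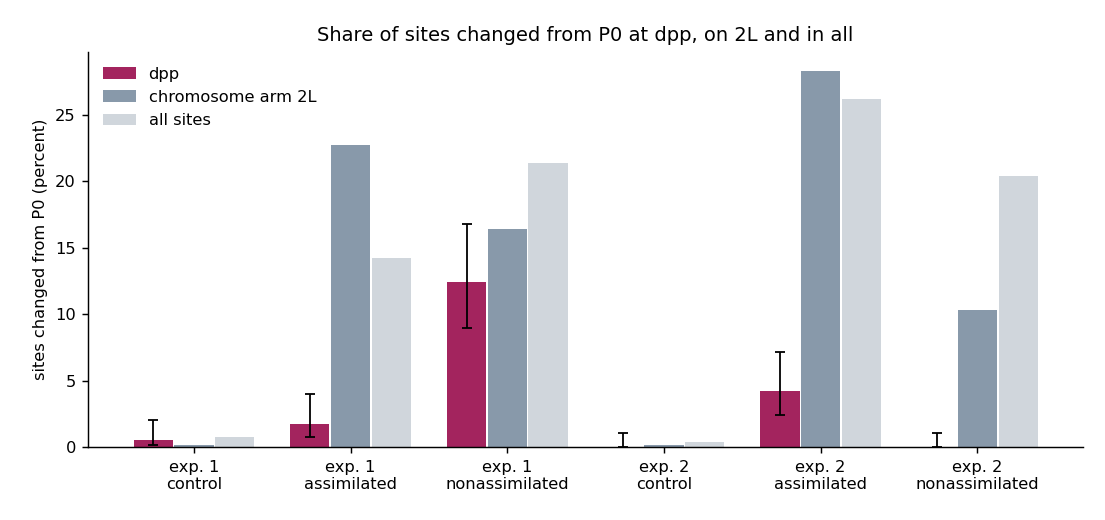
Share of listed sites changed from P0 (percent, two-sided Fisher's exact test, Bonferroni-adjusted p-value below 1e-05) at dpp, on chromosome arm 2L and over all sites, for the 3 derived pools of Mix experiments 1 and 2. Error bars on dpp are Wilson 95% intervals over sites, which cover counting error only; dpp is below both other bars in the 4 selected pools and is highest, at 12.4%, in the experiment 1 nonassimilated pool.

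The frequency that an allele had in P0 limited which sites could pass. At the median depths of dpp, an allele that was lost had to start at 35.1% to 40.7% of the reads in P0 to pass. Among sites whose rarer allele was at 10% or more in P0, 237 of the 286 dpp sites were in the experiment 1 assimilated table. The median frequency of the rarer allele in P0 was 22.5% at these, against 30.4% over all such sites. The mean size of the change over all listed sites does not depend on a p-value threshold, although an allele that is lost can change by no more than its frequency in P0. In the assimilated pools it was 13.6 percentage points at dpp against 22.7 over all sites in experiment 1, and 21.3 against 29.8 in experiment 2. In the nonassimilated pools it was 19.7 against 26.5 and 16.8 against 24.8. The mean change on 2L was 27.7 and 32.1 points in the assimilated pools and 24.7 and 18.3 in the nonassimilated pools, the last being close to that of dpp. In the control pools, however, the mean change was higher at dpp, at 19.5 against 11.7 points in experiment 1 and 14.0 against 11.6 in experiment 2 (9.55 and 10.8 on 2L). Among the 2703 genes with at least 50 sites in each Mix table, 2457 had a smaller mean change than dpp in the experiment 1 control pool, 1873 in the experiment 2 control pool, but only 393 and 892 in the assimilated pools and 551 and 900 in the nonassimilated pools.

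The sites of dpp moved in a few sets that run through the whole gene. Sites were clustered on their frequencies in the 4 pools of experiment 1 alone, which gave 5 groups of 112, 58, 57, 23 and 18 sites. In experiment 2, which this clustering did not use, the sites of groups 1 to 4 did not all stay together. Their standard deviation (SD) over sites was 14.8 to 33.2 percentage points in each pool. When sites were clustered on experiment 2 instead, most of group 1 stayed together, with 81 sites in 1 group and 12 in another. Groups 2, 3 and 4 split into 24 and 14, 25 and 30, and 16 and 7 sites. Over the sites of group 5 the SD was 0.0 to 5.26 points. Of these sites, 17 are listed in P0 and the assimilated pool of experiment 2 and 13 in its control and nonassimilated pools. The 222 sites listed in all 6 Mix tables were therefore clustered again on all 8 pools, a choice made after seeing the data. Each site was expressed as the allele that D907 does not carry. Sites that the D907 tables do not list were taken to be reference in D907, which was not measured. This gave 8 sets of at least 10 sites: 7 that vary, with 190 sites, and 1 of 30 sites at which nearly all reads of every pool carried the D907 allele. Only 2 sites fell in no set.

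Of the 7 varying sets, 3 were named a (81 sites), b (25 sites) and c (14 sites), and the other 4 were named ab (12 sites), ac (16), bc (22) and abc (20) because their frequencies were close to sums of the frequencies of a, b and c. The 3 base sets were chosen on the same 8 pools so that these sums matched best, so the match is a description of how the sets were named and no test of it. Over 4 sets in 8 pools the measured mean differed from the sum by 1.34 percentage points on average and by at most 4.68 points, at set bc in the experiment 1 P0 pool. For 7 of these 32 sums the sum itself was below 5%, where a close match is given by the low frequencies. At the sites of set abc the D907 allele is the one left once a, b and c are taken away.

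**Figure D2:**
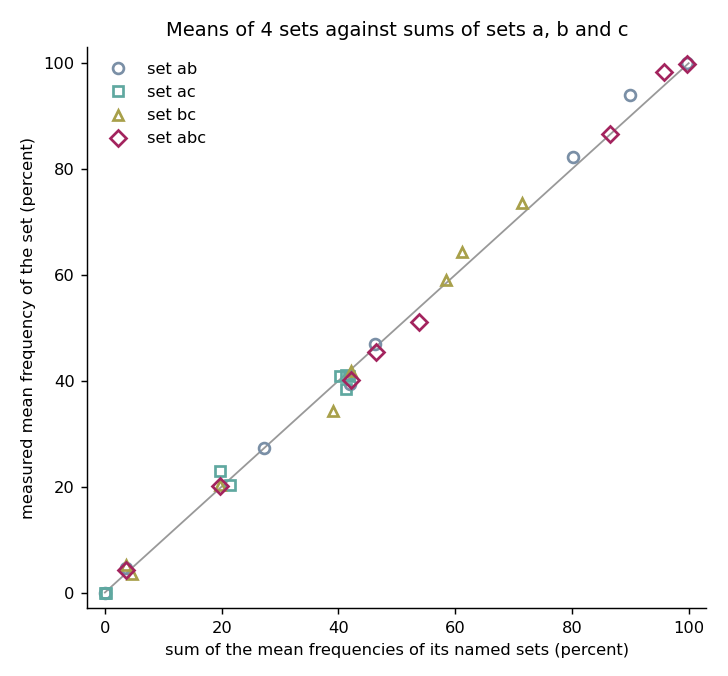
Measured mean frequency (percent) of the sites of sets ab, ac, bc and abc in each of the 8 Mix pools against the sum of the mean frequencies of the sets in their name (percent), with the line of equality. The base sets were chosen on these values to give the best match, and the largest distance from the sum is 4.68 percentage points.

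The allele that D907 carries at the sites of set abc was common in 3 of the 4 selected pools and nearly absent from the other. In experiment 1 its mean frequency over 20 sites was 48.9% ± 6.78 (SD over sites) in P0, 54.5% ± 5.86 in the control pool, 79.9% ± 3.96 in the assimilated and 95.7% ± 3.87 in the nonassimilated pool. For the 200 chromosomes of a pool the Wilson 95% intervals were 42.2% to 55.9%, 47.6% to 61.3%, 73.9% to 85.0% and 91.7% to 97.6%. The intervals of P0 and control overlapped, and those of both selected pools lay above them and apart from each other. In the direct test of the 2 selected pools, given below, none of 270 sites of dpp differed. The intervals count 200 chromosomes, more than the median depth of 93 and 89 reads in the assimilated and nonassimilated pools. In experiment 2 the same allele was at 13.4% ± 3.53 (P0), 1.69% ± 2.55 (control), 59.8% ± 5.47 (assimilated) and 0.0704% ± 0.315 (nonassimilated), with intervals of 9.45% to 18.9%, 0.511% to 4.32%, 53.1% to 66.5% and 0.0% to 1.88%. The assimilated pool was thus the highest of experiment 2. The control and nonassimilated pools were the lowest, and their intervals overlapped. Reads and linked sites are not independent draws, so these intervals cover counting error only. Over the 12 sites of set abc at which D907 itself was measured, the frequency differed by at most 7.04 points from that over the other 8.

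**Figure D3:**
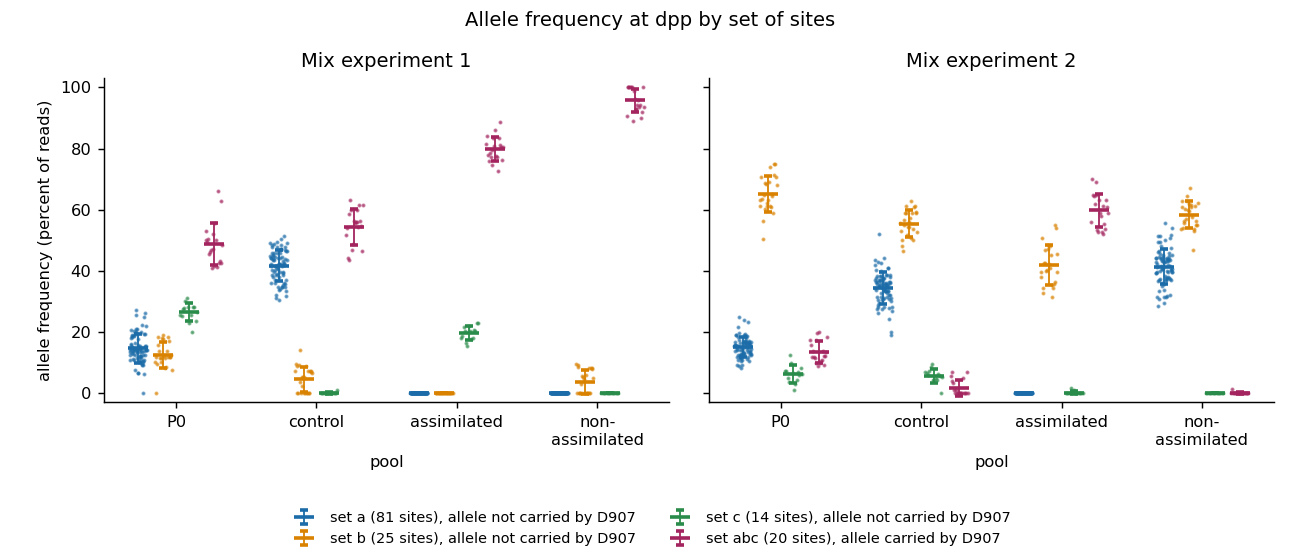
Allele frequency (percent of reads) at the sites of 4 sets at dpp in the 4 pools of Mix experiment 1 (left) and experiment 2 (right). Small points are sites, horizontal marks are means and bars are 1 SD over sites; sets a, b and c show the allele that D907 does not carry, set abc the allele that it carries. The D907 allele of set abc is at 79.9% and 95.7% in the assimilated and nonassimilated pools of experiment 1, but at 59.8% and 0.0704% in those of experiment 2.

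No read of set a was counted in 3 of the 4 selected pools, and the set was common in the other. Its mean frequency over 81 sites was 14.8% ± 4.73 in P0 and 41.8% ± 5.06 in control flies of experiment 1, and no read carried it in the assimilated and nonassimilated pools, which allows up to 1.88% for 200 chromosomes. In experiment 2 it was at 15.1% ± 3.27 (P0), 34.5% ± 5.23 (control), 0 (assimilated) and 41.3% ± 5.72 (nonassimilated). The control pools of both experiments and the nonassimilated pool of experiment 2 were therefore high, and no read of set a was counted in either assimilated pool. A further 80 sites of experiment 1 are listed for the control pool but for neither selected pool, with a median alternative frequency of 14.9% in P0 and 40.1% in control, and 79 sites of experiment 2 are listed for control and nonassimilated but not for assimilated flies, with medians of 15.1%, 34.9% and 39.8% in P0, control and nonassimilated flies. At these sites the frequency in the pools without an entry is not known.

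Set b was rare in experiment 1 and common in experiment 2. Over 25 sites it was at 12.5% ± 4.27 (P0), 4.59% ± 4.12 (control), 0 (assimilated) and 3.64% ± 3.85 (nonassimilated) in experiment 1. In experiment 2 it was at 65.1% ± 5.96, 55.5% ± 4.43, 41.9% ± 6.46 and 58.4% ± 4.49 in the same order. The intervals of P0, control and nonassimilated flies of experiment 2 overlapped (58.2% to 71.3%, 48.6% to 62.2% and 51.6% to 65.1%), and that of assimilated flies overlapped only the one of control (35.4% to 48.9%). Set c, with 14 sites, was at 26.5% ± 2.96 (P0), 0.0821% ± 0.307 (control), 19.7% ± 2.32 (assimilated) and 0 (nonassimilated) in experiment 1. In experiment 2 it did not exceed 6.29% ± 2.92, its mean in P0.

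The sets lay over one another along the gene and did not mark separate parts of it. Their first and last sites were 23201 to 29458 bp apart. With the gene split at its midpoint, the mean of set a, b, c or abc in the first part differed from that in the second by at most 5.14 points in any pool. Sites were put in 1 set because their frequencies were alike in these same pools. The small difference was thus given by the clustering and is no test of a constant level. For the same reason the plot of sites along the gene shows each set at a near constant height from the 5' to the 3' end. Pool-seq does not show which alleles lie on the same chromosome. Since the sites of 1 set had like frequencies in every pool, a count of changed sites was not read as a count of independent changes.

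**Figure D4:**
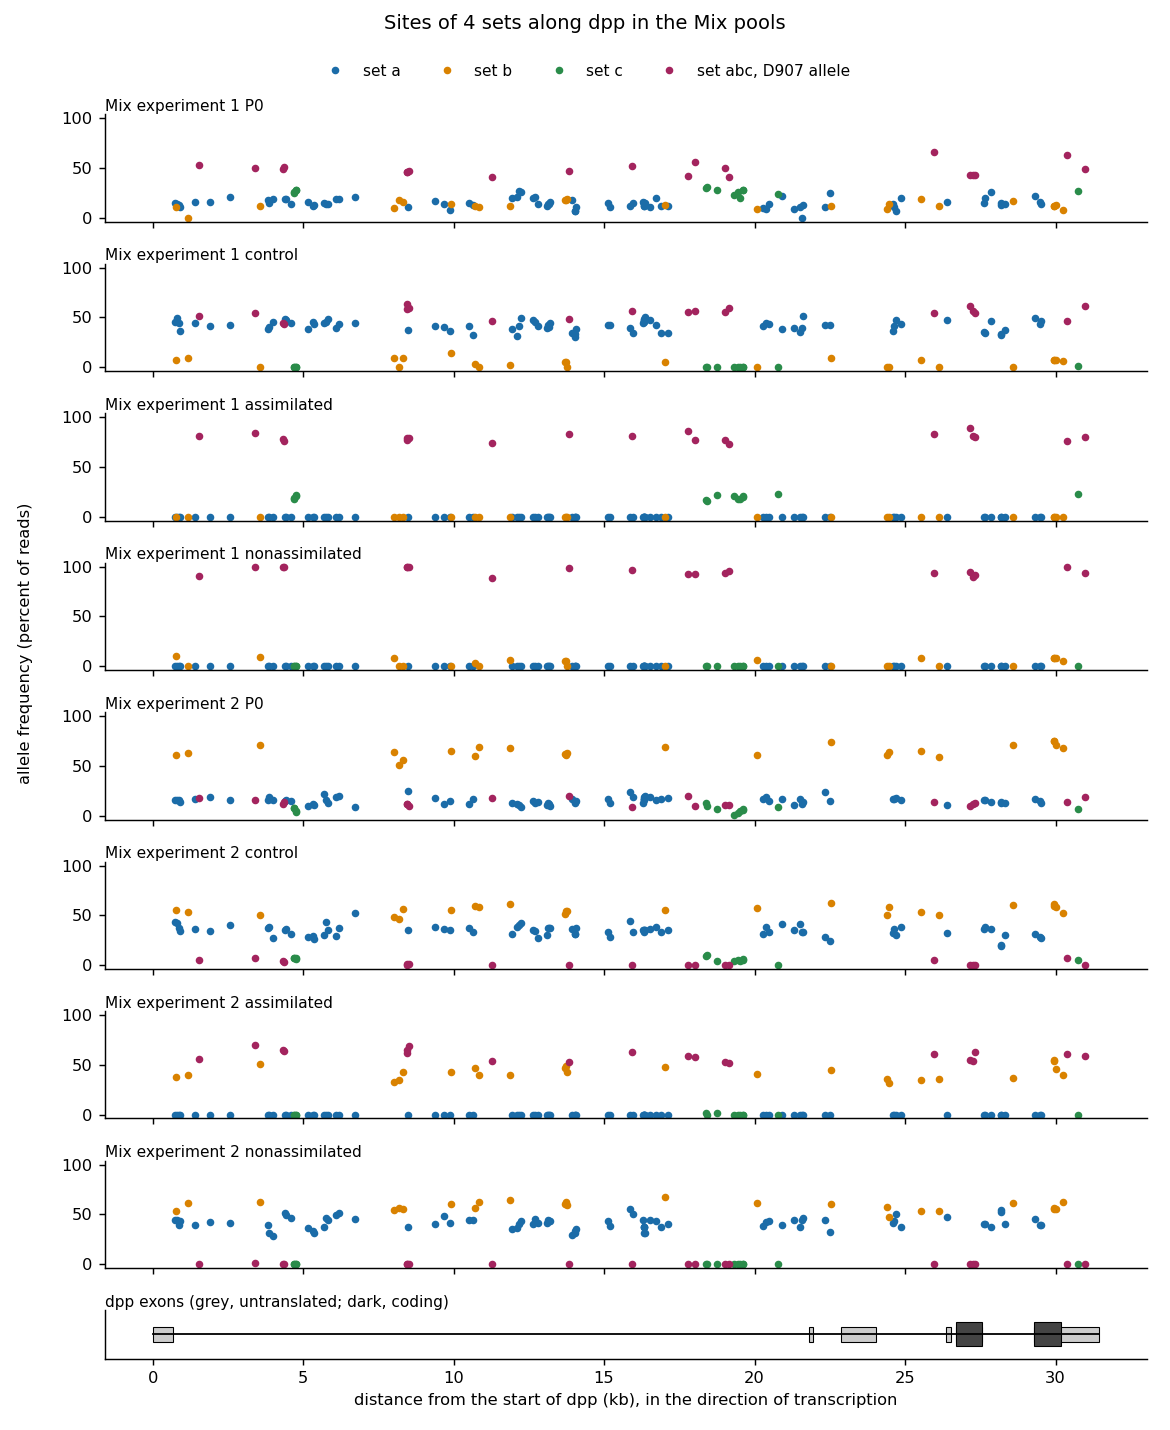
Allele frequency (percent of reads) of the sites of sets a, b, c (allele that D907 does not carry) and abc (allele that D907 carries) against their distance from the start of dpp (kb) in the 8 Mix pools, above the exons of the gene. Each set keeps its level along the gene within a pool, and its means on both sides of the gene's midpoint differ by at most 5.14 points, which the clustering on these pools gives.

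At the sites that changed in a selected pool, the D907 allele was the one that rose, if sites not listed in D907 are again taken to be reference there. All 5 changed sites of the experiment 1 assimilated pool were listed in D907, and at all 5 its allele rose. Among the 127 sites of that table at which D907 has the alternative, this is 5 rises and 0 falls, against 8.93% rises and 6.32% falls over all such sites. In the experiment 1 nonassimilated pool 22 of 127 such sites rose and 0 fell (all such sites, 13.6% and 8.24%), and in the experiment 2 assimilated pool 7 of 129 rose and 0 fell (6.97% and 10.2%). The remaining changed sites, 12 of 34 and 5 of 12, are not listed in D907, and their alternative allele fell. In the control pools none of 125 and 121 sites with the alternative in D907 changed (rises and falls over all such sites, 0.0479% and 0.553% in experiment 1, 0.0551% and 0.187% in experiment 2). By set, the changed sites of the experiment 1 nonassimilated pool lay in abc (16), ac (13) and bc (3), those of the experiment 2 assimilated pool in abc (8) and ab (1), and those of the experiment 1 assimilated pool in ab (3) and abc (2), and the others were not listed in all 6 tables.

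Of the 41 sites that changed in a selected Mix pool, 30 were intronic, 4 coding, 4 in the 5' UTR and 3 in the 3' UTR. The only site that changed in the same direction in both assimilated pools was dpp site 2455526, at the third base of codon 152 (1 of 235 sites, or 0.426%, against 4.15% of all sites). D907 carries its alternative allele. Its frequency was 42.7% (P0), 61.5% (control), 88.8% (assimilated) and 94.4% (nonassimilated) in experiment 1, with adjusted p-values of 3.4e-07 for assimilated and 4.0e-11 for nonassimilated against P0 (Fisher's exact test). In experiment 2 it was 9.28% (P0), 0 (control), 55.2% (assimilated) and 0 (nonassimilated), with an adjusted p-value of 2.9e-06 for assimilated against P0. The selected pools of experiment 1 and the assimilated pool of experiment 2 were high. No read with this allele was counted in the control and nonassimilated pools of experiment 2. For the control pools (0.0213% of all sites) and for the nonassimilated pools (7.58% of all sites) no site of dpp changed alike in both experiments. With both experiments in 1 stratified test (Cochran-Mantel-Haenszel, Bonferroni-adjusted), 3 of 313 sites passed for control (1.05% of all sites), 30 of 235 for assimilated (24.2%) and 1 of 235 for nonassimilated flies (22.6%).

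The nearby coding sites 2455616 and 2455679, at the third base of codons 182 and 203, belong with it to set abc. Site 2455679 was at 42.6%, 54.8%, 80.4% and 92.1% in P0, control, assimilated and nonassimilated flies of experiment 1 and at 12.2%, 0, 63.1% and 0 in experiment 2. It passed only in the nonassimilated pool of experiment 1 (adjusted p-value 4.8e-08), where site 2455616 passed too (4.9e-06). Site 2455246, at the second base of codon 59, was the only 1 of the 18 coding sites that was not at the third base of a codon. It belongs to set bc, and its alternative allele, which D907 carries, was at 56.9%, 94.5%, 78.1% and 96.7% in experiment 1 and at 19.1%, 34.8%, 59.5% and 41.5% in experiment 2. It passed in the nonassimilated pool of experiment 1 (adjusted p-value 8.0e-08) and not in its control pool (0.00062), although both were high.

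The site with the smallest p-value of the gene in experiment 1, dpp site 2451448 in the 5' UTR exon of dpp-RC, belongs to set ac. Its alternative allele, which D907 carries, was at 55.8% (P0), 62.0% (control), 84.0% (assimilated) and 100.0% (nonassimilated) in experiment 1 (adjusted p-value 1.3e-14 for nonassimilated). In experiment 2 it was at 79.2%, 55.1%, 100.0% and 62.4%, and no pool passed. In the assimilated pool of experiment 1 the smallest p-value was that of dpp site 2451168, an intronic site of set ab at 63.3%, 58.3%, 100.0% and 95.8% (adjusted p-value 1.2e-07 for assimilated). In the assimilated pool of experiment 2 it was that of dpp site 2436877, an intronic site of set abc not listed in D907, whose alternative allele was at 90.2%, 99.0%, 30.8% and 100.0% in P0, control, assimilated and nonassimilated flies (adjusted p-value 2.6e-10). In the nonassimilated pool of experiment 2 it was that of dpp site 2431068, at 0 in P0, 32.6% in control and 41.9% in nonassimilated flies, which missed the threshold (adjusted p-value 0.00018). Of the control pools, that of experiment 1 had its smallest p-value at dpp site 2449933 of set a, at 0 in P0 and 39.6% in control (adjusted p-value 2.0e-08). Other sites of set a were at 14.8% on average in that P0 pool. The smallest p-value of the experiment 2 control pool was at dpp site 2435099 of set a, at 8.82% and 52.2% (adjusted p-value 2.3e-05, which missed the threshold).

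Assimilated and nonassimilated flies were compared directly, since their changes from P0 rest on the same P0 reads. In experiment 1 none of 270 sites of dpp differed between these pools, against 23.9% of all sites, and 112 had an unadjusted p-value below 0.05 by Fisher's exact test (41.5%, against 52.1% of all sites). In experiment 2, by contrast, 99 of 276 sites differed (35.9%, against 18.8% of all sites), and 196 had an unadjusted p-value below 0.05 (71.0%, against 34.0%). The 99 sites that differed comprised 49 of set a, 20 of set abc, 12 of set ab and 8 of set ac, with 10 that are not listed in all 6 tables. Of the 119 sites with the alternative in D907, 36 differed with the D907 allele higher in assimilated flies and 0 with it lower (5.05% and 12.1% of all such sites). In D907 none of 145 sites differed (1.12% of all sites), and none had an unadjusted p-value below 0.05 (4.67% of all sites).

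Set against the control pool of the same experiment instead of P0, more sites of the gene passed in 3 of the 4 selected Mix pools. In experiment 1, 87 of 272 sites differed between assimilated and control flies (32.0%, against 17.7% of all sites) and 97 of 268 between nonassimilated and control flies (36.2%, against 25.2%), and 62 and 56 of them belonged to set a. In experiment 2, 55 of 278 sites differed between assimilated and control flies (19.8%, against 22.4%), and 0 of 355 between nonassimilated and control flies (20.2% of all sites). In D907 none of 147 sites differed from control in assimilated (2.92% of all sites) or in nonassimilated flies (0.738%).

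The change of nonassimilated flies differed between the 2 experiments, while no site passed this test for assimilated flies. At 79 of 235 sites the changes from P0 of the nonassimilated pools differed (33.6%, against 24.1% of all sites, two-sided z test on the arcsine square root scale, adjusted p-value below 1e-05), and at all 79 they went in opposite directions. Of these sites 32 lay in set a, 19 in abc, 16 in ac and 9 in ab. For the assimilated pools the count was 0 of 235 (20.6% of all sites), and for the control pools 1 of 313 (0.48% of all sites). That site, dpp site 2443531, which is named after its values were seen, was at 27.0% in P0 and 0 in control of experiment 1 and at 4.3% and 10.9% in experiment 2. The P0 pools themselves differed at dpp, in a comparison that was added after seeing the data. At 48 of 330 sites P0 of experiment 2 differed from P0 of experiment 1 (14.5%, against 2.39% of all sites, Fisher's exact test). Of these, 18 lay in set b, 12 in ab and 1 in abc, and at the 124 sites with the alternative in D907, 22 were lower in the later P0 and 0 were higher (1.19% and 1.41% of all such sites).

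Variation at the gene, measured as the mean of 2pq (the expected share of heterozygotes, which is 0 where 1 allele is fixed), was 0.295 in the P0 and 0.292 in the control pool of experiment 1 over 268 sites. It was 0.121 and 0.0317 in the assimilated and nonassimilated pools, and no test was made of these means. In experiment 2, over 276 sites, the values were 0.271 (P0), 0.334 (control), 0.208 (assimilated) and 0.325 (nonassimilated). The nonassimilated pool was thus the lowest of experiment 1 and close to the control pool in experiment 2. In D907 it lay between 0.000124 and 0.000650 in the P0, control and assimilated pools and was 0.00694 in the nonassimilated pool, which became 0.000646 over the 142 sites with at least 30 reads in all 4 pools. The sites with the alternative in D907 had a mean frequency of its allele of 76.1% ± 18.5 (SD over sites), 80.1% ± 21.7, 89.9% ± 10.7 and 97.0% ± 3.44 in P0, control, assimilated and nonassimilated flies of experiment 1 (125 to 127 sites). In experiment 2 it was 59.6% ± 36.6, 58.2% ± 37.1, 80.3% ± 21.2 and 60.4% ± 37.7 (119 to 129 sites). Its P0 and nonassimilated means were close although sets moved apart. From P0 to nonassimilated flies the D907 allele fell in sets a, ab, ac and abc and rose in b, c and bc.

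Most other genes of the BMP pathway and of vein formation had changed sites too. Of 39 such genes, 29 and 33 had at least 1 changed site in the assimilated and nonassimilated pools of experiment 1, and 28 and 24 in those of experiment 2. Among all genes the shares with a changed site were 51.0%, 61.7%, 59.1% and 45.8%, and among genes of at least 50 sites they were 83.4%, 93.7%, 80.9% and 72.6%, so that these counts vary with the number of sites. In the control pools 14 and 5 of the 39 genes had a changed site (8.61% and 5.75% of all genes, and 25.2% and 20.4% of genes of at least 50 sites). The median share of changed sites over the 39 genes was 9.52% and 23.0% in the selected pools of experiment 1 and 15.4% and 17.1% in those of experiment 2.

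For the genes named next, the share of changed sites is given in the order experiment 1 assimilated and nonassimilated, then experiment 2 assimilated and nonassimilated. Over all sites these shares were 14.2%, 21.4%, 26.2% and 20.4%. Genes were named for the largest share in their list or because they are core genes of the pathway, so that a high share is in part fixed by that choice. Of the ligands, gbb, which can form dimers with Dpp, had 7 sites, of which 4 changed in the experiment 1 control pool and none in a selected pool. For the ligand gene scw, with 18 to 24 sites, the shares were 9.52%, 20.8%, 77.8% and 0. All 4 receptor genes had a changed site in both assimilated pools, but the shares varied widely between pools. The type I receptor gene tkv, on 2L as well, had 403 to 520 sites and shares of 61.8%, 3.53%, 0.204% and 0. For the other type I receptor gene, sax (11 to 13 sites), they were 23.1%, 38.5%, 63.6% and 0. The type II receptor genes were at 15.3%, 0, 16.4% and 21.1% for put (57 to 63 sites) and at 20.8%, 37.2%, 23.4% and 25.5% for wit (43 to 48 sites). None of the receptor genes was above the share of all sites in all 4 pools.

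Inside the cell, Mad, the transcription factor that the receptors activate, had 114 to 187 sites and shares of 0, 23.0%, 3.47% and 0. Its partner gene Med (21 to 27 sites) was at 9.09%, 22.2%, 81.0% and 81.0%. The inhibitory Smad gene Dad (100 to 119 sites) was at 0, 46.2%, 36.4% and 49.0%, and brk, a repressor of Dpp targets with 5 to 10 sites, at 0, 0, 0 and 71.4%. Each of these was below the share of all sites in the assimilated pool of experiment 1. The remaining gene of this list, shn (507 to 782 sites), is named after its values were seen. It was above that share, at 16.1%, 21.4%, 0 and 0. Of the extracellular regulators, sog, an antagonist of BMP ligands with 175 to 214 sites, was at 15%, 32.0%, 0 and 33.7%. The crossvein gene cv-2 (338 to 371 sites) was at 58.6%, 57.9%, 0 and 23.1%, and the protease gene tok (277 to 381 sites) at 1.31%, 23.9%, 48.4% and 55.6%. The gene tsg has 1 site, which changed only in the experiment 1 assimilated pool. The Dpp targets salm and salr, which position the second vein, were at 9.82%, 69.4%, 69.0% and 73.0% and at 7.29%, 43.9%, 46.9% and 47.7% over 108 to 129 and 187 to 247 sites. The other targets were at 8.60%, 35.2%, 0 and 0 for bi (484 to 605 sites) and at 10.5%, 0.429%, 0 and 0 for vg (177 to 233 sites), which is named after its values were seen, so that neither had a changed site in a selected pool of experiment 2. Of the EGFR and Notch genes, E(spl)mbeta-HLH, with 7 to 9 sites, was at 0, 33.3%, 100.0% and 100.0%, spi, an EGFR ligand gene with 16 to 19 sites, at 35.3%, 57.9%, 73.7% and 0, and caup (143 to 213 sites) at 0, 42.9%, 71.7% and 2.80%.

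**Figure D5:**
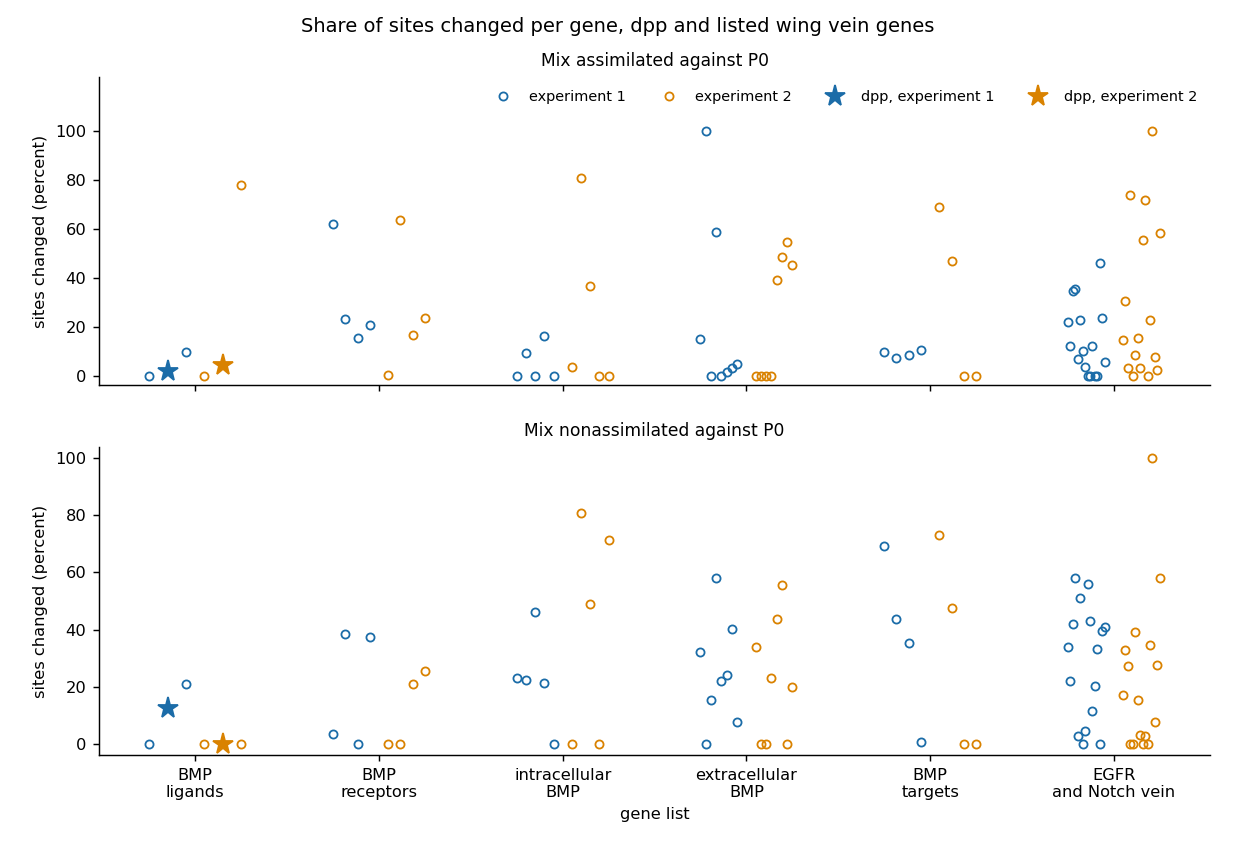
Share of listed sites changed from P0 (percent) in each gene of 6 lists (circles) and in dpp (stars) in the assimilated (top) and nonassimilated (bottom) pools of Mix experiment 1 (blue) and experiment 2 (orange). dpp is at 1.75% and 4.2% in the assimilated pools and at 12.4% and 0.0% in the nonassimilated pools, beside list medians over the 39 other genes of 9.52% and 15.4% (assimilated) and 23.0% and 17.1% (nonassimilated).

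The genes most like dpp in the mean size of their changes over the 6 Mix comparisons, among 2651 genes of at least 50 sites that lie over 1 Mb away, were stwl, CG14982 and CG44195, all on 3L. Their Euclidean distances from dpp over these 6 means were 5.28, 6.41 and 6.55 percentage points. In the experiment 1 control, assimilated and nonassimilated pools, the mean change of stwl was 19.9, 18.1 and 19.4 points, beside 19.5, 13.6 and 19.7 points at dpp.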

How the data were processed

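The authors aligned paired-end reads of 12 pools to dm6 with BWA and called SNPs and InDels with GATK, and the deposited tables set 1 derived pool beside its P0 pool. Each deposited cell holds a pair of other values, the read counts of the reference and the alternative allele, which are not normalized for depth. The deposited Fisher p-value and its rank and q-value were not used, since p-values were recomputed. Filters on sites are not given in the sources used here. The members and lists were chosen with earlier results of these data known.

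At each site the read counts of both pools entered Fisher's exact test (two-sided), p-values were Bonferroni-adjusted for the number of sites tested in that table, and a site changed at an adjusted p-value below 1e-05. Sites were grouped by average linkage on allele frequencies, with the tree split at a distance of 0.25 and groups of at least 10 sites described. Named sites are those with the smallest p-value of each comparison, those closest to the mean of a group, and sites that changed in the coding sequence or in both experiments. Named genes are those with the largest share of changed sites in each list, 7 set genes of the pathway, and the 3 genes most like dpp. D208 was not analysed here. Each experiment has its own P0, which pairs its pools by the experiment number in the labels, and the paired form was the Cochran-Mantel-Haenszel test, stratified by experiment. The sites shown for sets a, b, c and abc were chosen after seeing the data. The Fisher, stratified and z test code was tested on simulated data. Alternatives were other thresholds and corrections, 30 reads at least, read counts scaled to 200 chromosomes, other spans and site sets, and the control pool in place of P0. Scripts ran in Python 3.11.15 with SciPy 1.17.1, NumPy 2.4.6, Numba 0.67.0, pandas 2.3.3 and Matplotlib 3.10.9.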

Additional observations from a re-analysis of the deposited data

Results flagged for a closer look

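The nonassimilated pools of the 2 experiments moved differently at dpp. The change from P0 differed between experiments at 79 of 235 sites (33.6%, against 24.1% of all sites) by the z test on the arcsine square root scale, and at all 79 the directions were opposite, with the change of the D907 allele the higher in experiment 1 (sites not listed in D907 taken to be reference there). With read counts scaled to 200 chromosomes 35 sites remained past the threshold. The P0 pools from which these changes are counted also differed at 48 of 330 sites.

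The control pools differed in their change at 1 of 313 sites (0.319%, against 0.48% of all sites), and at 0 with scaled read counts.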

How the results depend on the processing

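Counts of changed dpp sites depended on the threshold and on how reads were counted. In the order experiment 1 control, assimilated and nonassimilated, then experiment 2 control, assimilated and nonassimilated, they were 2, 5, 34, 0, 12 and 0. At an adjusted p-value below 1e-08 they were 0, 0 and 20 in experiment 1 and 1 in the experiment 2 assimilated pool, and at 0.05 they were 32, 15, 65, 6, 37 and 9. With the Benjamini-Hochberg correction they were 60, 47, 106, 8, 70 and 39. With read counts scaled to the 200 chromosomes of a pool they were 0, 0 and 11 in experiment 1 and 1 in the experiment 2 assimilated pool. Keeping sites whose rarer allele was at 10% or more in P0 left 1 changed site in the experiment 1 control pool. Within exons the counts were 0, 1 and 9 in experiment 1 and 3 in the experiment 2 assimilated pool, and with 5 kb added on each side they were 63 in the experiment 1 nonassimilated and 23 in the experiment 2 assimilated pool. Counted from control instead of P0 they were 87 and 97 for the assimilated and nonassimilated pools of experiment 1 and 55 for the assimilated pool of experiment 2. The D907 counts were 0 under all alternatives run.

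With the experiments as strata (replicate block, Cochran-Mantel-Haenszel test), 3 sites passed for control, 30 for assimilated and 1 for nonassimilated flies, beside 0, 1 and 0 that passed in both experiments. Leaving out 1 experiment gave 0 to 2 sites for control, 5 to 12 for assimilated and 0 to 34 for nonassimilated flies. The 1 site shared by both assimilated pools became 0 at 1e-08, 8 at 0.05 and 0 with scaled read counts. Scaled read counts also gave 0 control and 35 nonassimilated sites with a change that differed between experiments, 39 sites that differed between assimilated and nonassimilated flies of experiment 2 (46 at 1e-08) and 11 between the P0 pools. In experiment 1, 13 sites differed between assimilated and nonassimilated flies at 0.05. The 5 groups of sites became 3 with the tree split at 0.4 and 8 on all 8 Mix pools. Mean 2pq in the experiment 1 control pool was 0.32883 over all listed sites. The causes of these differences were not tested. Depth limits the test to alleles near 35.1% or more in P0 where they are lost.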
